A study of Homo sapiens with 12 samples.

Results

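PAX6, its overlapping genes PAUPAR and ELP4, and NEUROG2 are described here, 4 of the 58735 genes in the count tables. PAX6 and NEUROG2 were chosen by their gene counts, which were lower in SETDB1 knockout cells in both library kits, and PAUPAR and ELP4 because they overlap PAX6 on the opposite strand. The fold changes of the 4 genes between knockout and wild type therefore describe the choice and carry no test. RNA was sequenced from HAP1, a near-haploid human line labelled as chronic myelogenous leukemia, either wild type (WT) or a SETDB1 knockout derivative. SETDB1 encodes a histone methyltransferase that places a repressive methyl mark on histone H3 at lysine 9. Both genotypes were grown alike in serum-containing medium without further treatment, and total RNA was made into libraries with a non-directional or a directional kit, which gave 4 groups of 3 biological replicates by the titles. The labels do not say how the knockout was made or whether it is 1 clone, so an effect of the clone and an effect of the knockout cannot be told apart.

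PAX6 is a transcription factor with a paired domain and a homeodomain, known for its part in the development of the eye, the forebrain, the spinal cord and the pancreatic islets. NEUROG2 is a proneural factor of the basic helix-loop-helix class that turns on neuronal differentiation and Notch ligands in progenitors, and in the developing cortex it is a known target of Pax6. ELP4 is a subunit of Elongator, the complex that modifies wobble uridines of transfer RNA, and its introns are known to hold distant enhancers of PAX6. PAUPAR is a long noncoding RNA transcribed from the other strand, away from PAX6.

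In the gene models of GENCODE 29 on GRCh38, PAX6 (ENSG00000007372) ran from 31784779 to 31818062 on the minus strand of chromosome 11, with 84 transcripts from 71 start sites. ELP4 (ENSG00000109911) ran towards it on the plus strand, from 31509700 to 31790328. A single ELP4 transcript of 29 had a last exon of 6936 bases, from 31783393 to 31790328, that reached into PAX6. The shared exon sequence came to 5241 bases, which was 25.2% of the PAX6 exons and 19.2% of the ELP4 exons. Of these bases, 387 were coding in at least 1 PAX6 transcript and the other 4854 lay outside its coding sequence. At the other end, PAUPAR (ENSG00000281880, plus strand, 31812307 to 32002405) started 5755 bases inside PAX6, counted from the PAX6 start, and shared 191 exon bases with it, none of them coding. NEUROG2 (ENSG00000178403) is a gene of 1 transcript on the minus strand of chromosome 4, from 112513516 to 112516172. The antisense gene AC023886.1 (plus strand, 112515385 to 112546881) shared 92 exon bases with NEUROG2, 91 of them coding.

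The stretches where a read could belong to either strand are shown because the members were read with their opposite-strand genes. Reads that the counting placed in several genes stayed out of the gene counts, 8.37% to 8.41% of listed reads in the non-directional libraries. How many reads of these stretches were set aside or counted was not tested. The first is the start of the NEUROG2 coding sequence, with its start codon in capitals (chr4:112515385-112515475, minus strand, GRCh38), over which AC023886.1 has an exon. The second is the last coding stretch of a full-length PAX6 transcript before its stop codon (chr11:31789937-31790019, minus strand, GRCh38), which lies inside the last ELP4 exon.
NEUROG2: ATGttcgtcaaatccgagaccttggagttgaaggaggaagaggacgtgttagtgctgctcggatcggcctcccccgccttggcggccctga
PAX6: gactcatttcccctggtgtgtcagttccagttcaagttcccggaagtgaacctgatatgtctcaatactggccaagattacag
Both sequences are written 5′ to 3′ along the strand of the named gene, so that an antisense RNA would carry the complement.

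**Figure D1:**
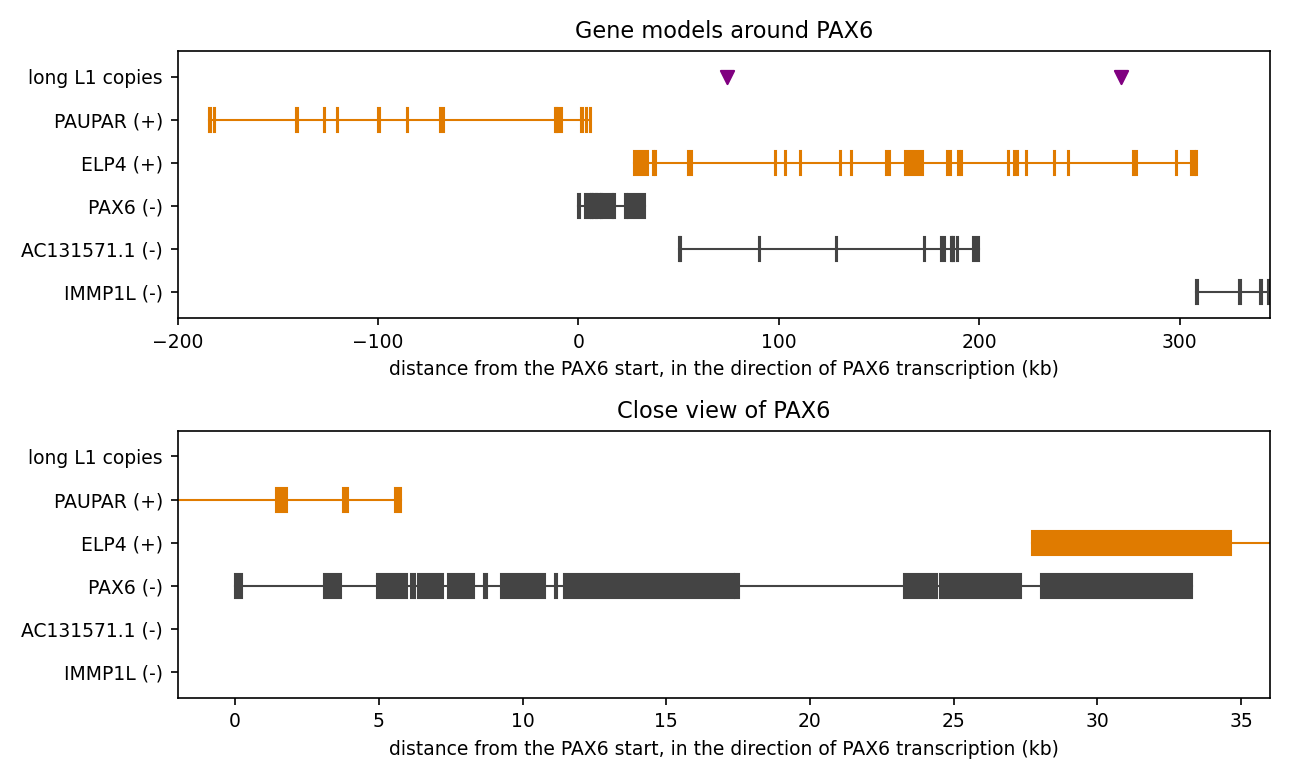
Exon blocks of the genes around PAX6, by distance from the PAX6 start in the direction of its transcription (kb), with the minus strand in grey and the plus strand in orange. Triangles mark long L1 copies, and the lower panel shows the same exons close to PAX6, where the last ELP4 exon covers the end of PAX6 and PAUPAR overlaps its start.

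The sequence before the outermost starts of PAX6 and NEUROG2 is shown because both genes are lower in the knockout, with every CG dinucleotide in capitals. The windows come from RefSeq on GRCh38.p14, in which 4 of 4 members were found, and are trimmed to the part before any annotated exon (PAX6 chr11:31818063-31818211, NEUROG2 chr4:112516181-112516430, both minus strand).
PAX6: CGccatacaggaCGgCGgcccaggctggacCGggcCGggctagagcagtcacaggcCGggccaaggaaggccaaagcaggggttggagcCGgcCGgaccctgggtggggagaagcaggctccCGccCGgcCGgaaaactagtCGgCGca
NEUROG2: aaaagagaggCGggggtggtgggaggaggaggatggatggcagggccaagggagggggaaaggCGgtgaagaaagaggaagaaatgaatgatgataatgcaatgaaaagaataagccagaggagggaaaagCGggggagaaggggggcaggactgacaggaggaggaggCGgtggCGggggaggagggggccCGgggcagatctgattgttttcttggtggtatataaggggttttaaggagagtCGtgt
Over the full window of 300 bases, 250 before and 50 after the start, PAX6 held 24 CG dinucleotides at 64.7% GC, and 66.1% of the 34796 windows of all genes held fewer. NEUROG2 held 10 CG dinucleotides at 56.3% GC, and 43.7% of windows held fewer. The bHLH motif CANNTG, its own reverse complement, was in 68.7% of all windows and in neither of these. The cAMP-response motif TGACGTCA, also its own reverse complement, was in 1.84% of all windows and occurred 1 time in the PAX6 window. CCAAT, searched on both strands, was in 34.6% of all windows and occurred 1 time in that of PAX6 and not in that of NEUROG2. Neither TGACGTCA nor CCAAT occurs in the PAX6 stretch shown, which leaves out the part of the window inside the annotated PAX6 exon. PAX6 had 9 windows, and these values are for the outermost alone.

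The non-directional tables held 8921959 to 10199215 gene counts per library, 80.3% to 80.4% of listed reads. The directional tables held 532021 to 676691, only 5.23% to 5.30% of listed reads, with 94.6% in no gene. SETDB1 itself fell in the non-directional libraries, from 651, 543 and 519 counts in wild type to 118, 106 and 118 in the knockout (log2 fold change -2.39 ± 0.08 SE, adjusted p = 7.019e-43, edgeR). In the directional libraries it had 12, 17 and 7 against 6, 4 and 11 counts (-0.71 ± 0.41 SE, adjusted p = 0.256, edgeR). The log2 fold change of the SETDB1 counts differed between the kits by 1.74 ± 0.45 (SE, adjusted p = 0.0102, edgeR interaction). Which strand the directional SETDB1 counts hold was not tested. SETDB1 was thus lower in every knockout library of the non-directional kit, while the label could not be checked in the directional kit, whose groups overlapped. The 3 non-directional knockout libraries differed by less than sampling noise (chi-square per degree of freedom 0.956 to 0.991, p = 0.773 to 0.9999, chi-square test over 13559 to 13604 genes), whereas the wild-type pairs gave 1.03 to 2.00. They are given as 3 libraries as labelled, and their spread may be technical. Of 12 blood cell markers, 6 were at 0 in all 6 non-directional libraries, SPI1, HBG1, HBG2, CD33 and MPO among them, and TAL1 alone passed the filter. The blood markers together gave 16.5 to 16.8 counts per 1000000 gene counts (CPM) in wild type and 2.95 to 3.89 CPM in the knockout, of which TAL1 alone held 16.1 and 3.24 CPM on average.

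PAX6 was low in wild-type cells and lower still in the knockout. In the non-directional libraries it had 69, 55 and 63 counts in the 3 wild-type replicates and 18, 18 and 12 in the 3 knockout replicates. Every knockout library lay below every wild-type library, which was also true of 27.0% of the 13778 genes tested in this kit (56.2% did not overlap in either direction). The mean level was 6.54 ± 0.33 CPM (SD, n = 3) in wild type and 1.62 ± 0.38 CPM (SD, n = 3) in the knockout. The fitted difference was a log2 fold change of -2.02 ± 0.21 (SE), or 4.06-fold lower. Only 1.81% of tested genes had a lower log2 fold change. Genes called lower at an adjusted p under 0.05 (edgeR) made up 25.9% of those tested, and genes called higher 25.5%, around a median log2 fold change of -0.0012.

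With the directional kit PAX6 had 23, 31 and 15 counts in wild type and 6, 8 and 6 in the knockout. Whether these are reads of the PAX6 strand was not tested. The groups again did not overlap, as for 15.1% of the 4745 genes tested in this kit with the knockout lower and 30.2% in either direction. The level went from 37.2 ± 8.8 to 11.5 ± 2.3 CPM (SD, n = 3 each), and the fitted log2 difference was -1.71 ± 0.34 (SE). CPM values of the 2 kits are not on one scale, because the directional gene totals hold so small a share of the reads. Here 8.54% of tested genes were called lower and 7.67% higher.

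NEUROG2 was as low as PAX6 in CPM, and its counts were lower in the knockout in each kit as well. Which strand its directional counts hold was not tested. Its non-directional counts were 61, 59 and 73 in wild type and 22, 25 and 27 in the knockout. The groups did not overlap. The level was 6.79 ± 0.91 CPM in wild type and 2.49 ± 0.21 CPM in the knockout (SD, n = 3 each). The log2 fold change was -1.45 ± 0.19 (SE), 2.73-fold lower, and 2.69% of tested genes had a lower value. With the directional kit NEUROG2 had 11, 27 and 15 counts in wild type and 9, 3 and 5 in the knockout. The groups were apart by only 2 counts between the nearest libraries (11 in wild type, 9 in the knockout), and wild-type replicate 2 was well above the other 2. The directional log2 fold change was -1.56 ± 0.39 (SE). It ranged from -2.003 to -1.21 when single libraries were left out.

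The ELP4 values depended on the kit. With the non-directional kit it had 152, 135 and 158 counts in wild type and 166, 148 and 155 in the knockout, and the groups overlapped throughout. Its level was 15.6 ± 1.0 CPM in wild type and 15.8 ± 1.0 CPM in the knockout (SD, n = 3 each), and the fitted log2 difference was 0.0079 ± 0.0984 (SE). With the directional kit ELP4 had 14, 34 and 21 counts in wild type and 12, 6 and 5 in the knockout. Which strand these directional counts hold was not tested. These groups did not overlap, and the log2 fold change was -1.51 ± 0.34 (SE), with the mean going from 37.5 ± 13.8 to 12.9 ± 5.4 CPM. The ELP4 value in the directional kit was thus near that of PAX6 in the same kit, while in the non-directional kit it was near 0. The difference of the knockout effect between kits was -1.47 ± 0.36 (SE) on the log2 scale for ELP4, 0.35 ± 0.45 for PAX6 and -0.07 ± 0.54 for NEUROG2. Among the 15832 genes in that fit, 1.82% were called, 0.651% lower and 1.17% higher.

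PAUPAR was hardly counted. The non-directional libraries held 1, 0 and 1 counts in wild type and 1, 0 and 0 in the knockout, and all 6 directional libraries held 0. A count of 0 allows up to 3 counts, or 0.294 to 0.336 CPM per library in the non-directional kit and 4.43 to 5.64 CPM in the directional kit, which covers counting error only. A difference between genotypes was not detectable at this depth, and no fold is given. The same holds for AL035078.4, a gene that shares exons with PAUPAR and PAX6 and was at 0 in all 12 libraries.

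**Figure D2:**
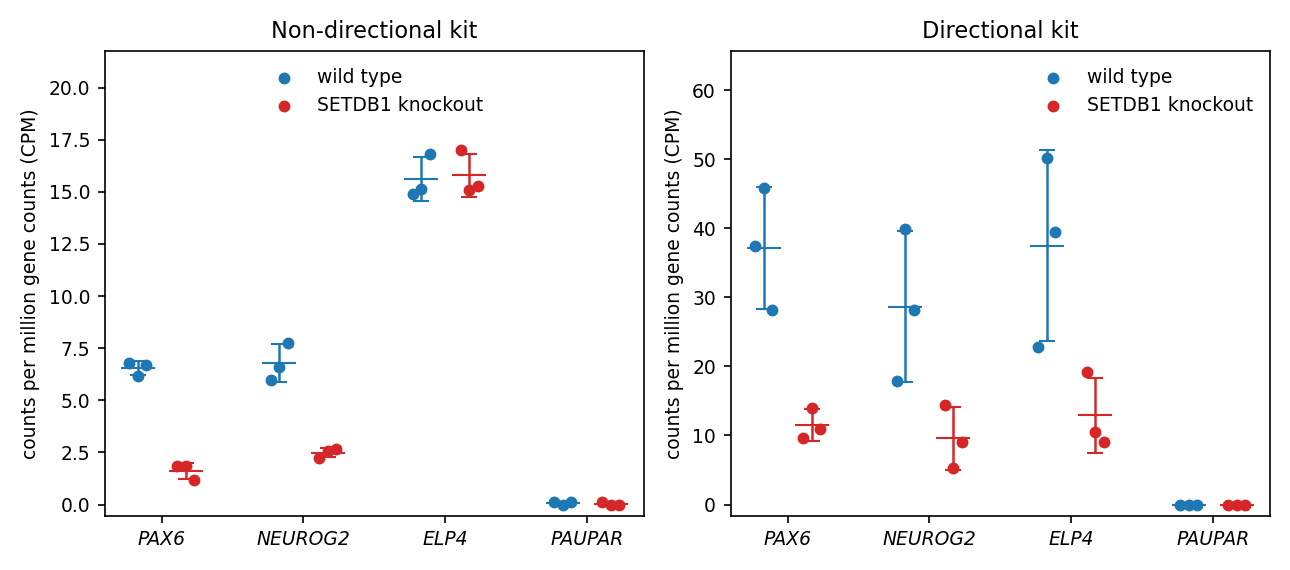
Counts per 1000000 gene counts of the 4 genes in each library, non-directional kit on the left and directional kit on the right (the axes differ). Points are the 3 libraries of a group and bars the mean ± SD. PAX6 and NEUROG2 are lower in every knockout library in each panel, ELP4 is lower on the right alone, and PAUPAR lies at or near 0.

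Levels can be set against each other only per length. Over all annotated exon bases, wild-type NEUROG2 stood at 2.97 ± 0.40 CPM per kilobase of exon (RPKM, SD, n = 3, non-directional). ELP4 followed at 0.572 ± 0.038 RPKM and PAX6 at 0.315 ± 0.016 RPKM, and neighbours in this order did not overlap within their SD. In the knockout the order was the same, at 1.09 ± 0.09, 0.578 ± 0.038 and 0.0778 ± 0.0183 RPKM. The 84 PAX6 transcripts together cover 20812 exon bases, against 2287 for NEUROG2, so the PAX6 value per length is spread over much sequence that a single transcript does not hold. The lengths also include the 5241 bases shared by PAX6 and ELP4, 25.2% and 19.2% of their exons. Reads placed in both genes there were not counted. In bulk RNA, fewer cells with a transcript and less transcript per cell cannot be told apart.

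Whether the reads listed for these genes depend on the strand that was counted was asked by comparing the kits in wild type, per listed read. Most genes had fewer reads in the directional tables, with a median log2 difference of -6.75, and 98.6% of 14682 genes were called (85.4% lower, 13.2% higher). ELP4 went from 12.6 ± 0.8 to 1.98 ± 0.73 reads per 1000000 listed (SD, n = 3 each), a log2 difference of -2.65 ± 0.17 (SE, adjusted p = 1.189e-52, edgeR). Scaled to gene totals instead, the ELP4 difference had the opposite sign, 3.54 with TMM and 3.73 with DESeq2 size factors. PAX6 differed by -1.40 ± 0.21 (SE) and NEUROG2 by -1.82 ± 0.22 (SE), which are given without a test because the choice of these genes required counts in each kit. All 3 genes lost far fewer reads than the median gene, and 16.01% to 18.6% of genes had higher values than they did. For PAX6 and NEUROG2 the choice itself favoured such values. All 3 also share exon sequence with a gene on the opposite strand. Genes that share exon sequence with a gene on the opposite strand had a median of -4.91 (n = 6887) and genes that do not had -7.31 (n = 7795). Of the former 1928 were called higher in the directional tables, and of the latter 9.

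**Figure D3:**
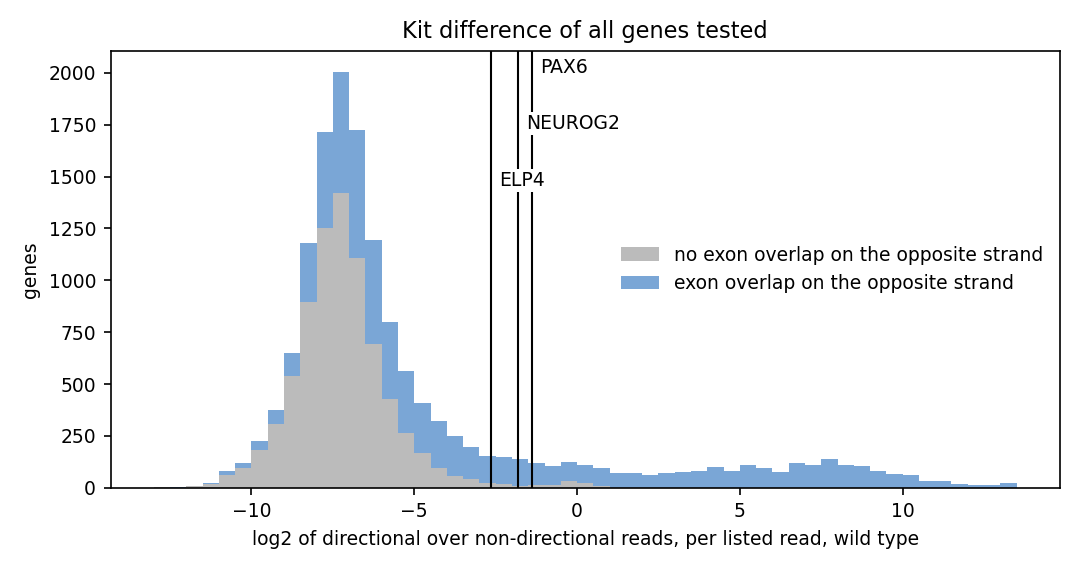
Distribution over all genes tested of the log2 ratio of directional to non-directional reads per listed read in wild type, split by whether a gene shares exon bases with a gene on the opposite strand. Vertical lines mark PAX6, NEUROG2 and ELP4, at -1.40, -1.82 and -2.65, to the right of the median of -6.75.

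The opposite-strand genes behaved as follows. AC131571.1, an antisense gene inside ELP4 (chromosome 11, 31618124 to 31767953, minus strand) that shares 106 exon bases with it, had 0 counts in all 6 non-directional libraries. In the directional libraries it had 32, 43 and 37 counts in wild type and 35, 36 and 36 in the knockout (log2 fold change -0.0085 ± 0.1921 SE, adjusted p = 0.985, edgeR). Its knockout groups overlapped with wild type, like those of ELP4 in the other kit. AC023886.1, the antisense gene over the start of NEUROG2, fell in the non-directional libraries from 21, 17 and 13 counts to 9, 7 and 2 (-1.55 ± 0.38 SE, adjusted p = 2.998e-04, edgeR), close to the NEUROG2 value of -1.45. In the directional libraries it had 5, 10 and 2 counts in wild type and 3, 1 and 0 in the knockout and was not tested. Non-directional libraries do not keep the strand, so reads of NEUROG2 and AC023886.1 cannot be told apart where they overlap. Reads placed in several genes stayed out of the gene counts. In wild type, RCN1 near PAX6 went from 460, 403 and 423 non-directional counts to 3, 0 and 0 directional counts. AL078612.1, on the other strand within its span, went from 0, 0 and 0 to 328, 354 and 301. EIF3M went from 2463, 2058 and 2263 to 4, 14 and 5, and CCDC73, which overlaps its span on the other strand, from 0, 0 and 0 to 592, 631 and 470. The strand setting used for counting is not given in the sources used here, and its part in these values was not tested.

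Genes around the members were then read, to see whether the lower counts extended along the chromosome. Within 1 Mb, 75 other genes were annotated, of which 17 were tested in the non-directional libraries, with 4 called higher, 4 lower and 9 not called, beside 51.5% called among all genes. On the PAX6 side 1 of 6 tested genes was called. This was IMMP1L, a subunit of the mitochondrial inner membrane peptidase that starts at the other side of the ELP4 promoter, with 134, 126 and 134 counts in wild type and 106, 114 and 112 in the knockout (-0.31 ± 0.11 SE, adjusted p = 0.0115, edgeR). That call was lost with the DESeq2 Wald test (adjusted p = 0.081). The other 5 had log2 fold changes near 0: DNAJC24 0.0018, the calcium-binding protein RCN1 0.03, the kidney transcription factor WT1 -0.08, WT1-AS -0.02 and the translation initiation factor EIF3M -0.0003. No tested neighbour of PAX6 had a value near the PAX6 value of -2.02.

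On the NEUROG2 side 7 of 11 tested genes were called, 4 higher and 3 lower. The lower genes were AC023886.1, the innate immune kinase ALPK1 (-0.67 ± 0.16 SE, adjusted p = 2.652e-04, edgeR) and the membrane adaptor ankyrin ANK2 (-0.10 ± 0.04 SE, adjusted p = 0.0172, edgeR). The ANK2 call was lost with the DESeq2 Wald test (adjusted p = 0.0767) and without wild-type replicate 3, knockout replicate 1 or knockout replicate 3. The highest values were those of the noncoding gene AC106864.2, with 6, 7 and 7 counts in wild type and 11, 20 and 19 in the knockout (1.24 ± 0.36 SE, adjusted p = 2.669e-03, edgeR). ZGRF1, a DNA helicase of crosslink repair, rose by 0.45 ± 0.07 (SE, adjusted p = 2.619e-08, edgeR) and the calcium-dependent kinase CAMK2D by 0.31 ± 0.06 (SE, adjusted p = 9.05e-06, edgeR). NEUROG2 and AC023886.1 thus had lower values than the other tested genes within 1 Mb.

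**Figure D4:**
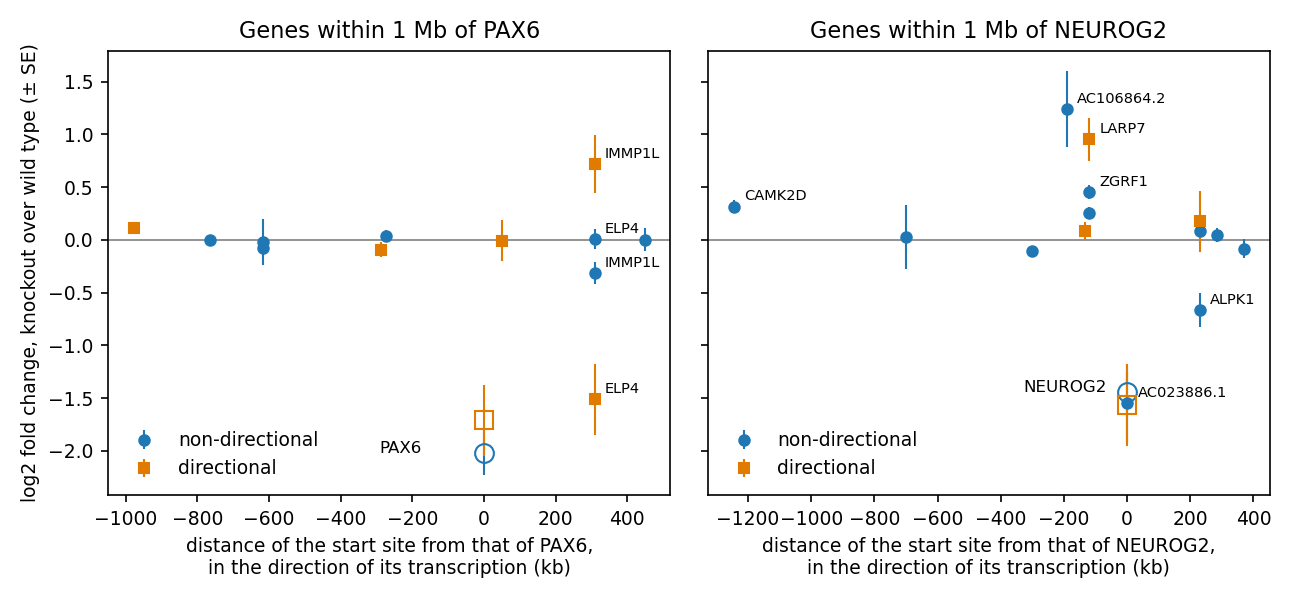
Log2 fold change (knockout over wild type, ± SE) of the tested genes within 1 Mb of PAX6 (left) and NEUROG2 (right), by distance between start sites in kb. Circles are non-directional and squares directional libraries, and open symbols are PAX6 and NEUROG2 themselves. ELP4 lies near 0 in the first and at -1.51 in the second, and the other neighbours of PAX6 stay between -0.31 and 0.72.

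Long L1 copies, the full-length class of the LINE-1 retrotransposon, were a readout at the same loci that played no part in the choice. The tables listed 12 copies within 1 Mb of PAX6 or NEUROG2, and 3 passed the filter. The nearest tested copy to PAX6, an L1PA4 within the spans of ELP4 and AC131571.1 (chr11:31740754-31746893, as the table gives it), had normalized signal values of 23.9, 20.8 and 20.2 in wild type and 11.7, 10.3 and 13.4 in the knockout. Its groups did not overlap, with a difference of -0.83 ± 0.30 (SE, adjusted p = 0.0442, limma) on the log2(value + 1) scale, beside 28.4% of 816 L1 copies called and 9.31% called lower. The call was lost without each single library, with no filter (adjusted p = 0.219), with the replicate block (adjusted p = 0.053) and with edgeR on the recovered reads (-0.52, adjusted p = 0.247). An L1PA3 copy within ELP4 (chr11:31544011-31550144) had values of 22.9, 37.9 and 34.8 in wild type and 23.5, 27.4 and 25.04 in the knockout, which overlapped (-0.29 ± 0.25 SE, adjusted p = 0.426, limma). An L1PA2 copy in CAMK2D, on the NEUROG2 side, also overlapped between groups (-0.04 ± 0.26 SE, adjusted p = 0.938, limma). With edgeR on the recovered reads and gene totals, the L1PA3 copy was at 0.03 ± 0.26 (SE, adjusted p = 0.940, edgeR). The L1PA2 copy was then at 0.34 ± 0.27 (SE, adjusted p = 0.368, edgeR).

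Relatives of the members were read next. Of the other 8 PAX genes 3 passed the filter in the non-directional libraries, and 1 was called lower. PAX2, the kidney and optic stalk factor, fell from 33, 32 and 39 counts to 11, 21 and 16 (-1.18 ± 0.25 SE, adjusted p = 3.001e-05, edgeR), with no overlap between groups. PAX8, the thyroid and kidney factor, was at -0.24 ± 0.20 (SE, adjusted p = 0.309, edgeR) and PAX9, a factor of tooth and thymus development, at -0.13 ± 0.11 (SE, adjusted p = 0.311, edgeR). The median of the 3 was -0.24, beside -0.0012 over all genes.

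Of the other 19 proneural bHLH genes 3 passed the filter and none was called with edgeR, 0 at an unadjusted p under 0.05 and 0 with DESeq2. ATOH1, which specifies hair cells and cerebellar granule cells, had a log2 fold change of -0.58 ± 0.29 (SE, adjusted p = 0.0896, edgeR), and its counts were 17, 22 and 21 in wild type and 17, 16 and 9 in the knockout. BHLHE22 was at -0.46 ± 0.31 (SE, adjusted p = 0.211, edgeR) and the oligodendrocyte factor OLIG2 at 0.11 ± 0.12 (SE, adjusted p = 0.466, edgeR). NEUROG2 had a lower value than each of them.

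Other subunits of Elongator were read beside ELP4. ELP6, which sits with ELP4 and ELP5 in the accessory subcomplex, fell from 565, 517 and 449 counts to 467, 447 and 449, by 0.24 on the log2 scale (SE 0.06, adjusted p = 6.374e-04, edgeR). ELP5 (-0.03), the catalytic subunit ELP3 (0.10) and ELP2 (0.08) were not called, and ELP4 at 0.0079 lay within their range.

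Of 20 tested factors of eye and forebrain, 7 were called higher, 6 lower and 7 were not called, with a median of -0.06, beside 25.5% of all genes called higher and 25.9% lower. The PAX6 partners of the retinal determination network split, since EYA2 had 22, 18 and 13 counts in wild type and 0 in every knockout library, at least 6.12-fold lower against a floor of 3 counts per library. The corepressor DACH1 fell from 399, 297 and 369 counts to 177, 162 and 147 (-1.20 ± 0.08 SE, adjusted p = 1.588e-22, edgeR), and EYA4 fell by 0.40 (SE 0.09, adjusted p = 7.219e-05, edgeR). EYA1 rose from 20, 14 and 13 counts to 24, 28 and 31 (0.75 ± 0.26 SE, adjusted p = 0.011, edgeR), a call lost with the DESeq2 Wald test (adjusted p = 0.0848) and without wild-type or knockout replicate 3. EYA3 rose from 534, 469 and 500 counts to 678, 667 and 695 (0.37 ± 0.05 SE, adjusted p = 3.401e-09, edgeR). SIX3 was not called (-0.12 ± 0.08 SE, adjusted p = 0.216, edgeR). EOMES, which follows PAX6 and NEUROG2 in cortical progenitors, rose from 34, 26 and 35 counts to 47, 57 and 65 (0.76 ± 0.18 SE, adjusted p = 2.858e-04, edgeR). The cortical factor EMX2 had 0, 1 and 0 counts in wild type and 18, 14 and 19 in the knockout (adjusted p = 2.781e-10, edgeR).

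Among 12 tested genes of the Notch pathway and known targets of proneural factors, 4 were called higher, 4 lower and 4 not, with a median of 0.0003, beside 51.5% of all genes called in either direction. INSM1, a zinc finger factor of neuronal and endocrine progenitors, fell from 36, 16 and 25 counts to 15, 8 and 4 (-1.57 ± 0.32 SE, adjusted p = 1.97e-05, edgeR). The Notch ligand DLL1 fell from 179, 166 and 167 counts to 113, 92 and 108 (-0.78 ± 0.10 SE, adjusted p = 9.069e-10, edgeR) and the Notch effector HES1 fell by 0.62 (SE 0.16, adjusted p = 5.408e-04, edgeR). Other members moved up, including the effector HEY1 (0.68 ± 0.19 SE, adjusted p = 1.557e-03, edgeR), the neuronal migration gene RND2 (0.31 ± 0.05 SE, adjusted p = 1.822e-07, edgeR) and the receptor NOTCH2 (0.22 ± 0.03 SE, adjusted p = 2.684e-09, edgeR).

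Neurons' own genes were sparse. Of 12 neuronal markers 4 passed the filter, ELAVL3 and ELAVL4 were at 0 in all 6 non-directional libraries, and the summed level was 18.5 to 23.1 CPM in wild type and 17.5 to 20.8 CPM in the knockout. MAP2, a dendritic microtubule protein, fell from 58, 29 and 45 counts to 14, 17 and 18 (-1.49 ± 0.23 SE, adjusted p = 6.846e-08, edgeR). GAP43, a growth cone protein, rose by 0.40 ± 0.15 (SE, adjusted p = 0.0188, edgeR), a call lost with the DESeq2 Wald test (adjusted p = 0.111) and without wild-type or knockout replicate 2. TUBB3 was at -0.006 and L1CAM at -0.14, neither called. The blood marker TAL1 fell from 162, 143 and 154 counts to 33, 36 and 27 (-2.32 ± 0.14 SE, adjusted p = 1.621e-25, edgeR), so that PAX6 and NEUROG2 were not the only lineage factors with lower counts. The part of a change in cell state or composition in the values of PAX6 and NEUROG2 was not tested. In the directional libraries PAX8, ELP5 and SOX2 alone among these relatives were tested and 0 were called with edgeR, 0 at an unadjusted p under 0.05 and 0 with DESeq2.

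**Figure D5:**
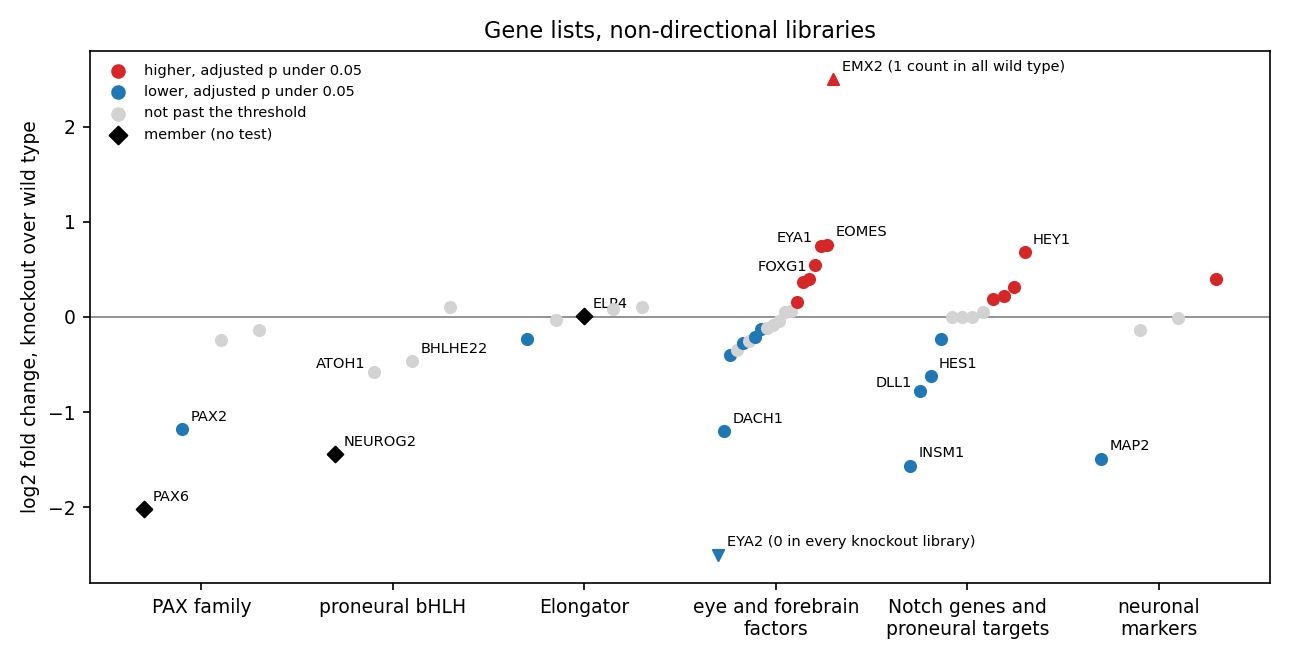
Log2 fold change (knockout over wild type) of tested genes of 6 lists in the non-directional libraries, with calls at an adjusted p under 0.05 in colour and the members as black diamonds without a test. Triangles are values beyond the axis, for EYA2 with no counts in the knockout and EMX2 with 1 count in wild type. PAX6 and NEUROG2 hold the lowest value of their lists and ELP4 lies near 0 within the Elongator list.

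The genes whose pattern over the 6 non-directional libraries was most like that of PAX6, by the root mean square difference of centred log2 CPM, were ZBTB20 (0.0955), CLDN1 (0.132) and COL4A4 (0.175). ZBTB20 is a zinc finger repressor, CLDN1 a tight junction protein and COL4A4 a basement membrane collagen. They went from 5.07, 15.3 and 9.97 CPM in wild type to 1.35, 3.37 and 2.42 CPM in the knockout. The genes most like NEUROG2 were the lipid-oxidising enzyme CYP4V2 (0.103), the G protein subunit GNAZ (0.111) and the mitochondrial creatine kinase CKMT1A (0.122). CKMT1A has a near-identical copy, so its reads are uncertain. PAX6 and NEUROG2 were not among each other's closest genes, with a difference of 0.396, at which NEUROG2 ranked 143 for PAX6 and PAX6 ranked 559 for NEUROG2.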

How the data were processed

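RNA-seq of 12 HAP1 libraries in 4 groups of 3 was analysed. The authors deposited raw gene counts per library and, for the 6 non-directional libraries, a normalized signal for 6437 long L1 copies. The submitters' processing notes name hg38, Trim Galore 0.4.4, STAR 2.6.0a, SAMtools 1.9, Picard 2.23.8, HTSeq 0.11.1, DESeq2 3.14 and bedtools. The strand setting and the origin of L1 coordinates are not given in the sources used here. All 58735 gene IDs matched GENCODE 29. The members and gene lists were chosen with earlier results of these data known.

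Each kit was fitted alone with the quasi-likelihood test of edgeR 4.0.16 (R 4.3.3; filterByExpr, minimum count 10 and total 15; TMM; Benjamini-Hochberg over all genes tested; threshold 0.05). The scripts were tested on simulated data. Reads in no gene, in several genes or not unique stayed out of gene totals, except in the kit comparison, which used all listed reads. L1 signal values were tested as log2(value + 1) with limma 3.58.1. The design had foreseen counts or this. Their reads were recovered as whole multiples (100% within 0.01 in each library) and tested with edgeR, which called 0 of the 3 copies near the members. DESeq2 1.42.0 was an alternative. Replicates are biological by their titles.

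Named genes were the members, SETDB1, genes with opposite-strand exon overlap, from each list and the neighbours up to 3 called genes per direction of largest change and all tested genes of lists of 10 or fewer, and the 3 genes most like PAX6 and NEUROG2 (root mean square difference of log2 CPM with 0.1 added). LARP7, SOX2, EYA3, SIX3, AL078612.1, CCDC73, AC106864.1 and the markers at 0 were named outside this rule, after their values were seen. Some results for listed genes are not reported here.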

Additional observations from a re-analysis of the deposited data

Results flagged for a closer look

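The knockout effect differed between kits for IMMP1L, which shares its promoter region with ELP4. It was higher in the directional than in the non-directional kit by 1.11 on the log2 scale (SE 0.31, adjusted p = 0.0213, edgeR interaction), beside 1.82% of genes called. IMMP1L had 19, 17 and 10 directional counts in wild type and 35, 17 and 21 in the knockout, so that these groups overlapped. Which strand the directional IMMP1L counts hold was not tested. The call was lost with no filter (adjusted p = 0.089) and without any of wild-type directional replicates 1, 2 and 3 or knockout directional replicates 1 and 3, with differences between 0.652 and 1.14 when single libraries were left out.

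The same was found for LARP7, a neighbour of NEUROG2 and a component of the 7SK small nuclear ribonucleoprotein, with a difference of 0.77 (SE 0.22, adjusted p = 0.0304, edgeR interaction). The LARP7 counts rose in each kit, by 0.25 ± 0.06 (SE, adjusted p = 7.744e-05, edgeR) in the non-directional and by 0.95 ± 0.20 (SE, adjusted p = 2.131e-04, edgeR) in the directional libraries. In wild type LARP7 had 580, 434 and 499 non-directional but 16, 33 and 25 directional counts. AC106864.1, on the other strand within its span, had 0, 0 and 1 against 243, 242 and 205. Which strand the directional LARP7 counts hold was not tested. The difference between kits was lost with DESeq2 size factors (adjusted p = 0.0783), the DESeq2 Wald test (adjusted p = 0.0907) and no filter (adjusted p = 0.191). It was also lost without any single directional library and without non-directional wild-type replicate 1 or knockout replicates 2 or 3, ranging from 0.395 to 0.83, with the lowest value and an adjusted p of 0.718 without wild-type directional replicate 1.

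The log2 fold change of the SETDB1 counts was less negative in the directional than in the non-directional libraries, by 1.74 (SE 0.45, adjusted p = 0.0102, edgeR interaction). Directional counts were 4 to 17 per library, against 651, 543 and 519 in non-directional wild type. Which strand the directional SETDB1 counts hold was not tested. The call was lost without wild-type directional replicate 1 (adjusted p = 0.0556) or 3 (adjusted p = 0.129) and without knockout directional replicate 1 (adjusted p = 0.0542) or 3 (adjusted p = 0.66), with a range of 1.08 to 1.86 when single libraries were left out.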

How the results depend on the processing

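PAX6 ranged over the alternatives from -2.12 to -1.83 (non-directional) and -1.87 to -1.52 (directional), NEUROG2 from -1.54 to -1.34 and -2.003 to -1.21, and ELP4 from -0.05 to 0.06 and -1.93 to -1.21, all log2 fold changes. The directional count of called genes was 769, and 330 with the DESeq2 Wald test. The 1 call among L1 copies near the members became 0 with no filter, with the replicate block and with edgeR on recovered reads, and 0 to 0 without single libraries. In the kit comparison the 14479 calls became 9138 with gene totals and DESeq2 size factors (4847 higher, 4291 lower) and 9778 with TMM (4704 higher, 5074 lower), and ELP4 reversed to 3.73 and 3.54, since gene totals take up the lower share of reads in genes. One fit over all 12 libraries split the non-directional calls into 2400 higher and 4170 lower, beside 3517 and 3572, with a median log2 fold change of -0.0458. The cause of the split was not tested. The difference between kits had 185 higher and 103 lower calls, and 144 and 123 with DESeq2 size factors. Deviations from the group means were uncorrelated between libraries of one number (mean -0.0102 non-directional, -0.0018 directional), so the numbers were not taken to pair the libraries. With the replicate block PAX6 was -2.02 and -1.69, NEUROG2 -1.45 and -1.54 and ELP4 0.0089 and -1.49 in the 2 kits, and the calls numbered 7074, 712, 14454 and 270 in the non-directional, directional, kit and interaction fits. Directional counts of 3 to 34 per library limit the members there, and PAUPAR lies under the detection floor throughout.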
